A study of Homo sapiens with 36 samples.

Results

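Transcripts of 10 genes of TGF-beta feedback and of the SNAI repressors, SMAD7, SMAD6, SMAD2, SMAD3, SMAD4, SKIL, TGIF1, SNAI1, SNAI2 and ID1, were examined in glioblastoma cells with and without exogenous CC3, before and after UV. The probes were chosen by gene symbol alone. A probe was annotated for 9 of the 10 genes, with none for TGIF1, and 8 genes had values, since the only probe of SKIL was blank on all arrays. Of the 12 annotated probes 10 had values, out of 13041 probes with values in the whole series, which stand for 8741 genes. Values on both untreated and irradiated arrays were present for 7 genes. SMAD6 and a second probe of SMAD2 had values on untreated arrays only, a second probe of SMAD3 on UV arrays only, and another probe of SMAD2 was blank.

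TGF-beta ligands bind a receptor pair that phosphorylates SMAD2 and SMAD3, while BMP ligands act through SMAD1, SMAD5 and SMAD9. The phosphorylated SMADs join SMAD4, enter the nucleus and switch target genes. Among these targets are the inhibitory SMADs: SMAD7 blocks the receptors of both branches and SMAD6 mainly those of BMPs, which closes a feedback loop. SKIL (SnoN) and TGIF1 are co-repressors that bind nuclear SMADs. SNAI1 (Snail) and SNAI2 (Slug) are zinc finger repressors of epithelial genes that TGF-beta can induce, and ID1 is a classical BMP target whose product binds basic helix-loop-helix factors and keeps them off DNA. In gliomas this pathway is known for its part in invasion and in keeping cells undifferentiated.

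U373 is an established glioblastoma line that lacks CC3 (TIP30, encoded by HTATIP2), a protein that binds importins and restrains nuclear transport. U373cc3 is a clone carrying CC3 under constitutive expression and U373neo is a control clone with the empty vector. The 4 groups were U373cc3 and U373neo, each 2 h after UV at 20 J/m2 and each untreated, with 3 biological replicates per group and 3 technical arrays per replicate, 36 arrays in all. The sample labels give the dose of 20 J/m2, while the methods state a lower dose. Each state of CC3 was represented by 1 clone, so the replicates measure the spread between harvests of a clone, and CC3 cannot be told apart from other differences between the clones.

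RNA was read on Phalanx Human OneArray chips in the single dye Cy5, and every value is a fluorescence intensity of a probe, which can be compared between groups but not between genes. The deposited intensities had been quantile-normalized separately for the 18 untreated arrays (median 895 to 896) and the 18 UV arrays (median 746 to 748). The clones were therefore compared within a treatment on the deposited intensities, and UV was compared with no UV after joint quantile normalization over the 11602 probes measured under both treatments. The probe of HTATIP2 was blank on all arrays, so the introduced gene could not be checked here. Of 10 astrocyte and glioma markers SOX9 alone had values, so the labelled cell type could not be checked either. Of the markers of other cell types 5 of 6 for neurons, 2 of 6 for fibroblasts (COL1A1 and LUM), 1 of 6 for leukocytes (CD14) and none of 6 for epithelium had values. The summed intensity of the fibroblast pair was 1316 in U373cc3 after UV, 1153 in untreated U373cc3, 2577 in U373neo after UV and 2326 in untreated U373neo, and its part in the clone differences was not tested. Array serial numbers fell into 3 ranges, of which range A held 3 of the 9 arrays of U373cc3 after UV, 4 of untreated U373cc3, 9 of U373neo after UV and 5 of untreated U373neo. Whether a range is a batch is not given in the sources used here. Values with the serial range as a term, or within range A, come from fits on single arrays rather than on replicate means. The range A arrays of U373cc3 after UV are the 3 technical arrays of biological replicate 3 alone. UV and after-UV values within range A therefore rest on 1 biological replicate of that group and describe the size of a change only.

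Sequence before the transcription start is shown for both inhibitory SMADs, because SMAD proteins bind such sequence in the feedback loop, and for ID1, the BMP target of the set. Each stretch is the 250 bases before a RefSeq start in GRCh38.p14, written along the gene's strand. SMAD7 lies on chromosome 18, minus strand, chr18:48950966-48951215, SMAD6 on chromosome 15, plus strand, chr15:66701986-66702235, and ID1 on chromosome 20, plus strand, chr20:31605039-31605288. Capitals mark CAGAC, the SMAD box GTCTG read on the other strand, in SMAD7. In SMAD6 they mark the palindromic SMAD element GTCTAGAC. In ID1 they mark CCGCCC, the GC box GGGCGG read on the other strand, and the TATA box TATAAAA.
SMAD7: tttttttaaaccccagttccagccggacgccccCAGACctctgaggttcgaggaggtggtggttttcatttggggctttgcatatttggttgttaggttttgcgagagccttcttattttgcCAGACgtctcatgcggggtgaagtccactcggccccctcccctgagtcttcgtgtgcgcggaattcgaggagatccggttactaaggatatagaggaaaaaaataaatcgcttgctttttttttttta
SMAD6: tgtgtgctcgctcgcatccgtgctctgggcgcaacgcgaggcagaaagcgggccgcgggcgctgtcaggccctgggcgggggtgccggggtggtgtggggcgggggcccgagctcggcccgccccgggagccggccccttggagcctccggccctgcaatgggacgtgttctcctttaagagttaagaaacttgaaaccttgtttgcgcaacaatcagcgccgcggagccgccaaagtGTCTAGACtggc
ID1: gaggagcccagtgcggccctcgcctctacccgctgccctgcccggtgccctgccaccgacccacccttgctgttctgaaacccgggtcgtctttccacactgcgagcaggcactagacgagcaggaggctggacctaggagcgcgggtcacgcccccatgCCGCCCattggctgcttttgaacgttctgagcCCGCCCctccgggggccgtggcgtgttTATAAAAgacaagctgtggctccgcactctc

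The SMAD7 stretch, upstream of the first listed of its 3 starts, held the SMAD box at -217 and -128 from the start, and 38.0% of 35116 promoters of the same length held that motif on either strand. The SMAD6 stretch held the palindromic element at -12, as did 0.182% of all promoters, and the stretches searched for the other 7 genes with a promoter in the table did not hold it. ID1 held GC boxes at -90 and -58 (42.6% of all promoters) and the TATA box at -31 (4.18%). GC content was 48.0% before SMAD7, 68.0% before SMAD6 and 66.0% before ID1, against a median of 58.0% over all promoters. The E-box CAGGTG, which SNAI proteins bind, was not in the stretches searched for the 8 genes and was in 17.5% of all promoters. Only the first listed start of each gene was searched, while SMAD2 has 2 starts in the table, SMAD3 has 5 and TGIF1 has 7. A match describes letters in a window and was not tested as a binding site. No promoter entry was matched for SNAI1 and SNAI2.

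In untreated cells, SMAD7, SNAI1 and SNAI2 were higher in U373cc3 than in U373neo and SMAD4 was lower, while ID1, SMAD2, SMAD3 and SMAD6 did not pass the test. After UV, SMAD7 and SNAI1 no longer differed past the threshold, SNAI2 and SMAD2 were higher and ID1 was lower in U373cc3. UV raised SNAI1 and lowered ID1 and SMAD4 in both clones, while SMAD7 and SNAI2 fell past the threshold in U373cc3 only. For SMAD7, SNAI1, SNAI2 and ID1 limma's test of the difference also passed, with a lower UV change in U373cc3 for each of them. All tests were limma fits with Benjamini-Hochberg adjustment over all probes of a comparison taking an adjusted p under 0.05 as past the threshold.

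Against the background of these comparisons the counts read as follows. Between untreated clones 3 of 8 genes were higher and 1 lower, when 38.2% of all probes passed the test (20.8% higher and 17.3% lower in U373cc3), and the replicates of the clones did not overlap for 5 of 8 genes and for 49.4% of all probes. After UV 2 of 7 genes were higher and 1 lower, against 38.0% of all probes (18.2% higher, 19.8% lower), without overlap for 4 of 7 genes and 51.0% of probes. UV in U373cc3 raised 1 and lowered 4 of 7 genes, against 57.7% of all probes (30.8% higher, 26.9% lower), without overlap for 5 of 7 genes and 65.4% of probes. UV in U373neo raised 1 and lowered 3 of 7 genes, against 59.5% of all probes (32.8% higher, 26.7% lower), without overlap for 3 of 7 genes and 64.2% of probes. After UV the share of lowered genes was above that of all probes in both clones, and the share of raised genes below. In U373neo this rests on 3 lowered genes, of which SMAD2 lost its call in several alternatives. With 7 or 8 genes a single gene moves such a share widely, so these counts describe the genes, and nothing particular to the set is read from them. The difference of the UV change between the clones passed the test for 4 of 7 genes, all lower, against 6.17% of all probes (2.18% higher, 3.99% lower). The median difference over the 7 genes was -0.46 on the log2 scale, and over all probes -0.03. The genes were proposed with earlier results of these data known, so this count describes them and is not independent evidence.

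**Figure D1:**
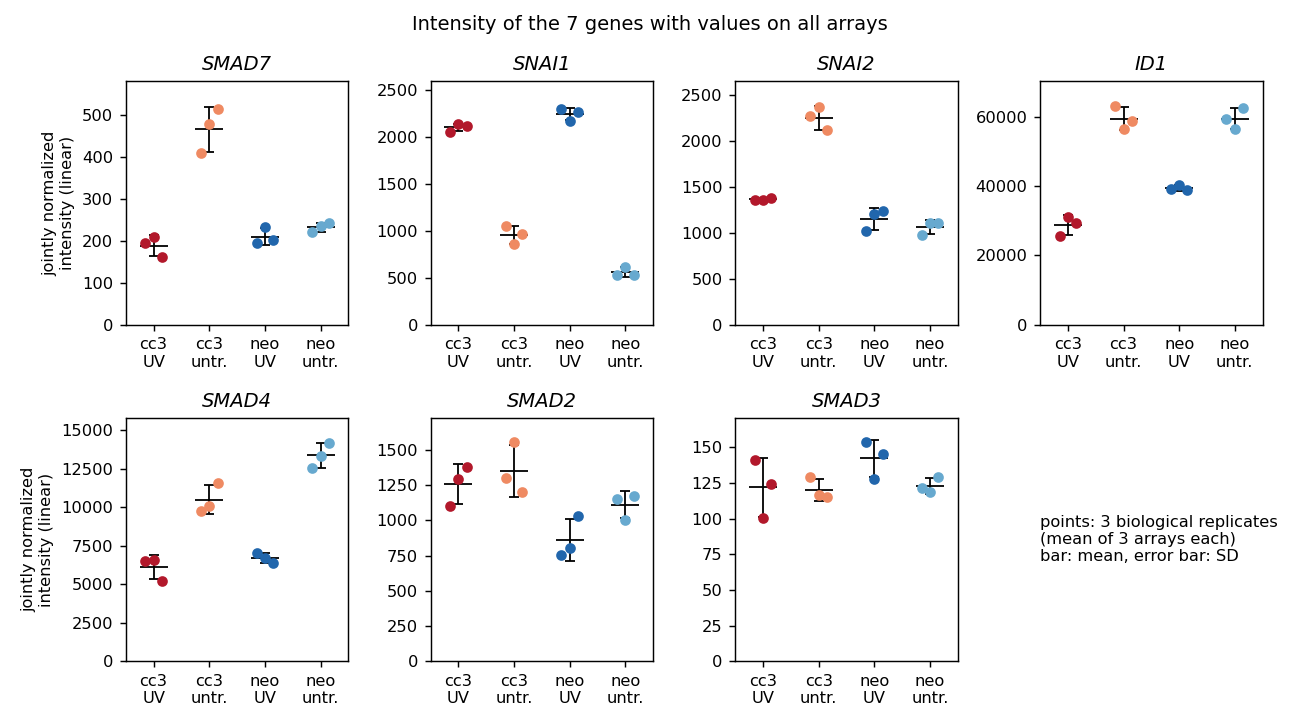
Jointly normalized probe intensity (linear axis from 0, scaled per gene) of the 7 genes with values on all arrays, in U373cc3 and U373neo after UV and untreated. Points are the 3 biological replicates, each the mean of 3 arrays, and bars show mean and SD; SMAD7 stands apart in untreated U373cc3 at 409 to 514, with the other 3 groups between 161 and 243.

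SMAD7, the inhibitory SMAD that recruits ubiquitin ligases to the TGF-beta receptor, was about 2-fold higher in untreated U373cc3. Its deposited intensity was 439.6, 516 and 556 in the 3 untreated U373cc3 replicates and 234, 250.03 and 259 in the untreated U373neo replicates. The groups did not overlap, and the lowest U373cc3 replicate was well above the highest U373neo replicate. The change was 2.03-fold (log2 change 1.02, 95% interval 0.76 to 1.28, adjusted p = 4.93e-05). With the serial range as a term, or within range A alone, it was 0.81 to 1.00. After UV the probe read 188, 202 and 153 in U373cc3 and 182, 222 and 193 in U373neo. These groups overlapped, and the log2 change of -0.15 (95% interval -0.41 to 0.12, adjusted p = 0.378) did not pass the test.

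Set against untreated cells on the joint scale, SMAD7 read 195, 210.0 and 161 in U373cc3 after UV and 409, 478 and 514 in untreated U373cc3. All irradiated replicates were lower, and the fall was 2.48-fold (log2 change -1.31, 95% interval -1.56 to -1.06, adjusted p = 3.04e-06). In U373neo it read 196, 233 and 201 after UV and 221, 235 and 243 untreated, with 1 irradiated replicate inside the untreated range. The log2 change there was -0.15 (95% interval -0.40 to 0.10, adjusted p = 0.278), and it passed the threshold only on the values as deposited (-0.32, adjusted p = 0.0386). The UV change in U373cc3 minus that in U373neo was -1.16 (95% interval -1.51 to -0.80, adjusted p = 0.00496), and -1.23 to -1.17 with the serial range as a term or within range A. The untreated U373cc3 replicates enter both the clone comparison and this difference, so the results are not independent. The probe was dim, between percentile 15.6 and 36.7 of the probes with values in the 4 groups.

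SMAD6, the inhibitory SMAD of the BMP branch, could be read in untreated cells only. Its intensity was 2242, 2509 and 2864 in U373cc3 and 2399.9, 2691 and 2709 in U373neo. The replicates of the clones were interleaved, with a log2 change of -0.04 (95% interval -0.30 to 0.22, adjusted p = 0.815). The interval does not hold a change of the size seen for SMAD7. SKIL and TGIF1, the co-repressors of the set, had no value.

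SNAI1, the zinc finger repressor of E-cadherin, was higher in untreated U373cc3 and was raised by UV in both clones. Untreated cells gave intensities of 1134, 932 and 1052 in U373cc3 and 573, 674 and 576 in U373neo. There was no overlap, and the change was 1.71-fold (log2 change 0.77, 95% interval 0.59 to 0.96, adjusted p = 3.26e-05). After UV the replicates read 1924, 2003 and 1978 in U373cc3 and 2158, 2036 and 2128 in U373neo. Every U373cc3 replicate was now slightly lower than every U373neo replicate, but the log2 change of -0.10 (95% interval -0.29 to 0.09, adjusted p = 0.407) did not pass the test.

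On the joint scale SNAI1 read 2058, 2140.3 and 2115 in U373cc3 after UV, against 1050.3, 861 and 972 in untreated U373cc3, a 2.20-fold rise (log2 change 1.14, SE 0.09, adjusted p = 9.94e-07). In U373neo it read 2304, 2178 and 2274 after UV and 529, 621 and 531 untreated, a 4.03-fold rise (log2 change 2.01, SE 0.09, adjusted p = 1.54e-08). Irradiated levels were thus within a narrow span in both clones, and the untreated levels were apart. The rise was smaller in U373cc3 by 0.88 on the log2 scale (difference -0.88, 95% interval -1.14 to -0.61, adjusted p = 0.00489). With the serial range as a term or within range A the difference was -0.91 to -0.81.

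SNAI2, the related repressor Slug, was also higher in untreated U373cc3, but unlike SNAI1 it did not rise past the threshold with UV in either clone. The deposited intensities were 2415, 2516 and 2249 in untreated U373cc3 and 1055, 1193 and 1188 in untreated U373neo. All U373cc3 replicates were higher, by 2.09-fold (log2 change 1.06, 95% interval 0.87 to 1.25, adjusted p = 3.06e-06). After UV the values were 1258, 1257 and 1277 in U373cc3 and 933, 1117 and 1139.6 in U373neo, 1.19-fold higher (log2 change 0.26, 95% interval 0.06 to 0.45, adjusted p = 0.0367). This last call was lost without any 1 of the 3 U373cc3 UV replicates or without U373neo UV replicate 1 (log2 change 0.16 to 0.26, adjusted p 0.0766 to 0.138). Within range A, which holds 1 U373cc3 UV replicate, the change was 0.27. The call was also lost with the methods' t-test (adjusted p = 0.117) and in a fit on only the groups of the comparison (adjusted p = 0.0617). It stayed past the threshold in 15 of 22 alternatives. That tally includes the range A fit, and also leave-outs of untreated replicates, which leave this log2 change as it is.

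On the joint scale SNAI2 read 1356, 1355 and 1375 in U373cc3 after UV and 2271, 2371 and 2111 in untreated U373cc3. The fall was 1.65-fold (log2 change -0.72, 95% interval -0.91 to -0.53, adjusted p = 3.34e-05). In U373neo it read 1014, 1208 and 1231 after UV and 974, 1106 and 1102 untreated, and the groups overlapped. That change was 0.11 (95% interval -0.07 to 0.30, adjusted p = 0.278), and -0.11 on the values as deposited, which does not pass the test either. The difference of the UV change was -0.84 (95% interval -1.11 to -0.57, adjusted p = 0.00596), and -0.85 to -0.80 with the serial range as a term or within range A.

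ID1, the inhibitor of basic helix-loop-helix factors, was among the brightest probes, at percentile 97.6 to 99.5 in the 4 groups. In untreated cells it read 61268, 53316 and 55558 in U373cc3 and 57172, 54183 and 60382 in U373neo. These values overlapped (log2 change -0.01, 95% interval -0.20 to 0.17, adjusted p = 0.91). In each untreated group 3 of 9 arrays were over 60000, against 0 of 9 in each UV group, and whether these spots were saturated was not tested. After UV the probe read 26848, 32836 and 30873 in U373cc3 and 41734, 43265 and 41541 in U373neo. All irradiated U373cc3 replicates were lower than the U373neo replicates, by 1.40-fold (log2 change -0.49, 95% interval -0.67 to -0.30, adjusted p = 0.000812).

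Set against untreated cells on the joint scale, ID1 read 25553, 31230.4 and 29483 in U373cc3 after UV and 63307, 56622 and 58789.6 in untreated U373cc3, a 2.08-fold fall (log2 change -1.05, SE 0.08, adjusted p = 1.22e-06). In U373neo it read 39113, 40470.3 and 38914 after UV and 59572, 56507 and 62562 untreated, a 1.51-fold fall (log2 change -0.59, SE 0.08, adjusted p = 7.2e-05). On this scale 4 of 9 untreated U373cc3 arrays and 6 of 9 untreated U373neo arrays exceeded 60000, with 65486 the highest, so if spots were saturated these folds are lower bounds, and the difference between the clones rests on the same untreated values. The size of both falls also depended on the scaling. With each array centred on its median the changes were -0.68 in U373cc3 and -0.20 in U373neo, where the call was lost (adjusted p = 0.0563). The difference between the clones was -0.46 (95% interval -0.72 to -0.21, adjusted p = 0.0398). It stayed past the threshold under 8 of 20 alternatives, and it was lost without any 1 of the replicates other than U373cc3 UV replicate 2 and U373neo UV replicate 1 (-0.50 to -0.38, adjusted p 0.0534 to 0.097). That tally includes the range A fit.

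**Figure D2:**
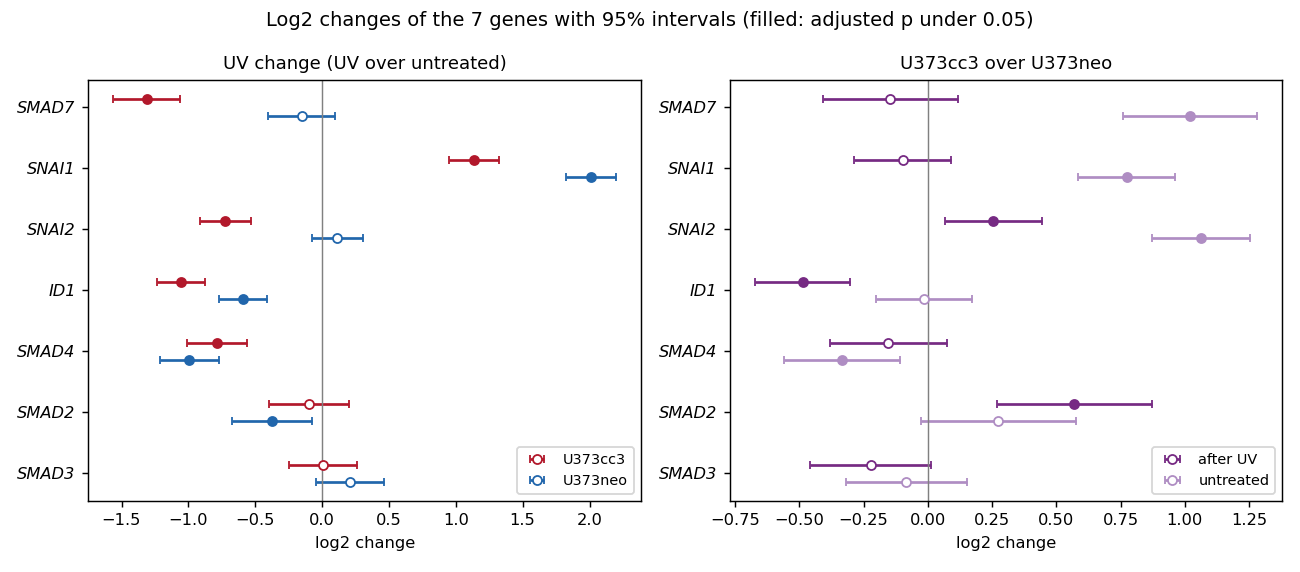
Log2 changes of the 7 genes with 95% intervals; left, UV over untreated cells in U373cc3 and in U373neo, right, U373cc3 over U373neo after UV and untreated, with filled points where the adjusted p was under 0.05. SMAD7 shows the widest gap between the clones on the left (-1.31 in U373cc3, -0.15 in U373neo), and SNAI1 is the only one of the 7 raised past the threshold by UV (1.14 in U373cc3, 2.01 in U373neo).

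SMAD4, the common partner of the receptor SMADs, was lower after UV in both clones. It read 6507, 6592 and 5195 in U373cc3 after UV and 9772, 10101 and 11542 in untreated U373cc3 on the joint scale, a 1.72-fold fall (log2 change -0.78, SE 0.10, adjusted p = 6.2e-05). In U373neo it read 7054, 6715 and 6362 after UV and 12540.4, 13334 and 14175 untreated, a 1.99-fold fall (log2 change -0.99, SE 0.10, adjusted p = 7.32e-06). Irradiated and untreated replicates did not overlap in either clone. The UV change was 0.21 higher in U373cc3 (95% interval -0.11 to 0.52, adjusted p = 0.396), which did not pass the test.

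Between untreated clones the deposited SMAD4 intensity was 9607, 9895 and 11212 in U373cc3 and 12122, 12886 and 13685 in U373neo. Every U373cc3 replicate was lower, by 1.26-fold (log2 change -0.33, 95% interval -0.56 to -0.11, adjusted p = 0.0241). That call was lost without U373cc3 untreated replicate 1 or 2 or without U373neo untreated replicate 2 or 3 (-0.33 to -0.29, adjusted p 0.0585 to 0.0829). The methods' t-test lost it too (adjusted p = 0.0615). After UV it read 6476, 6571 and 5102 in U373cc3 and 7056, 6698 and 6326 in U373neo, with overlap and a log2 change of -0.15 (95% interval -0.38 to 0.07, adjusted p = 0.277). In a fit on single arrays with the serial range as a term, this change was -0.33 and past the threshold (adjusted p = 0.00104). After UV, range A holds all 9 U373neo arrays and 3 of the 9 U373cc3 arrays. Range and clone are thus largely confounded there, and that value is not set above the fit on replicate means. Within range A, where U373cc3 after UV is replicate 3 alone, the lowest of its group, the change was -0.39.

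SMAD2, a receptor SMAD of the TGF-beta branch, was higher in U373cc3 after UV. Its brighter probe read 1019, 1197 and 1283 in irradiated U373cc3 and 686, 735 and 948 in irradiated U373neo. The groups did not overlap, and the change was 1.48-fold (log2 change 0.57, 95% interval 0.27 to 0.87, adjusted p = 0.00639). The call was lost with the methods' t-test (adjusted p = 0.0798) and kept in the other 21 of 22 alternatives. These include the range A fit, and also leave-outs of untreated replicates, which leave this log2 change as it is. In untreated cells it read 1391, 1668 and 1292 in U373cc3 and 1241, 1082 and 1263 in U373neo, again with every U373cc3 replicate higher, but the log2 change of 0.27 (95% interval -0.03 to 0.58, adjusted p = 0.137) did not pass the test. The dim second probe, with values on untreated arrays only, gave 139, 116 and 135 in U373cc3 and 129, 119 and 106 in U373neo (log2 change 0.14, adjusted p = 0.359).

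UV did not move SMAD2 past the threshold in U373cc3. On the joint scale it read 1105, 1293 and 1382 in U373cc3 after UV and 1298, 1557 and 1202 untreated, which overlapped (log2 change -0.10, 95% interval -0.40 to 0.20, adjusted p = 0.548). In U373neo it read 751, 803 and 1031 after UV and 1152, 1000.04 and 1176 untreated, with 1 irradiated replicate above the lowest untreated one. The fall of 0.37 on the log2 scale (log2 change -0.37, 95% interval -0.67 to -0.08, adjusted p = 0.0333) was lost without U373neo untreated replicate 1 or 3 or U373neo UV replicate 1 or 2 (-0.35 to -0.28, adjusted p 0.0862 to 0.124). The methods' t-test lost this call too (adjusted p = 0.125). The difference of the UV change was 0.27 (95% interval -0.15 to 0.70, adjusted p = 0.403).

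SMAD3, the other receptor SMAD, passed no test in the fits as reported. Its probe with values on all arrays was at percentile 4.4 to 9.12, near the dim end of the array. It read 140.4, 102 and 119 in U373cc3 after UV and 145, 129 and 144 in U373neo after UV (log2 change -0.22, 95% interval -0.46 to 0.01, adjusted p = 0.129). Without U373cc3 UV replicate 1, the highest of its group, that change was -0.34 and passed the threshold (adjusted p = 0.0206). In untreated cells it read 128, 115 and 115 in U373cc3 and 123.1, 122.3 and 133.8 in U373neo (log2 change -0.08, adjusted p = 0.564). The log2 UV change was 0.01 in U373cc3 (95% interval -0.25 to 0.26) and 0.21 in U373neo (95% interval -0.05 to 0.46, adjusted p = 0.146). With each array centred on its median the change in U373neo was 0.38 and passed the threshold (adjusted p = 0.00808). The second probe, with values on UV arrays only, read 89.2, 132 and 163 in U373cc3 and 108, 115 and 109 in U373neo, and it was higher in U373cc3 by 0.17 where the first was lower, neither past the threshold.

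UV effects rest on the scaling of treatments that had been normalized apart. The median UV change of all probes was 0.06 in U373cc3 and 0.07 in U373neo after joint normalization, -0.04 and -0.05 for these clones on the deposited values, and 0.20 and 0.19 with each array centred on its median. Among probes past the threshold the share that rose was 53.4% in U373cc3 and 55.1% in U373neo after joint normalization, 38.6% and 42.2% as deposited, and 66.6% and 65.5% after centring. SNAI1 rose and SMAD4 fell in both clones under all 3 scalings, as SMAD7, SNAI2 and ID1 fell in U373cc3. For SMAD7 the differences of the UV change between the clones were -1.25 to -1.05, for SNAI1 -0.95 to -0.81 and for SNAI2 -0.93 to -0.78 over all alternatives that gave a value. Each stayed past the threshold wherever more than 1 biological replicate stood for every group. The range A fit, with 1 for U373cc3 after UV, is read for the size of the difference only. A filter on dim probes left no value for SMAD7 after UV.

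SMAD7, SMAD2 and SMAD4 lie on chromosome 18, SNAI1 and ID1 on chromosome 20, SMAD6 and SMAD3 on chromosome 15 and SNAI2 on chromosome 8. Between untreated clones the log2 change on chromosome 18 was 1.02 for SMAD7, 0.27 for SMAD2 (not past the threshold) and -0.33 for SMAD4. The median of the 113 measured genes of that chromosome was 0.06 to 0.07. On chromosome 20 it was 0.77 for SNAI1 and -0.01 for ID1. On chromosome 15 SMAD6 (-0.04) and SMAD3 (-0.08) had the same sign, neither past the threshold. The 40 nearest measured genes around SMAD7 (20 on each side) had a median of 0.06 untreated, against its own 1.02, and of -0.02 for UV in U373cc3, against its own -1.31.

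UV lesions in the transcribed strand are known to stop RNA polymerase, so the length of each gene is given beside its UV change, and its part in that change was not tested. Over all genes, split into 10 equal classes by length, the median log2 UV change in U373cc3 was 0.27 in the class of shortest genes and -0.20 in that of the longest, and in U373neo it was 0.36 in the shortest and -0.44 in the longest. SNAI2, at 3832 bases, and ID1, at 1222 bases, are in the class of shortest genes, whose 10th to 90th percentile ran between -0.20 and 0.72 in U373cc3, and the values of SNAI2 (-0.72) and ID1 (-1.05) lay below that span. In U373neo that span was -0.09 to 0.86, with ID1 (-0.59) below it and SNAI2 (0.11) inside. SNAI1, at 5907 bases, lay above its own class's span of -0.28 to 0.67 in U373cc3 (1.14) and of -0.13 to 0.80 in U373neo (2.01). SMAD7, at 31113 bases, was below its class's span of -0.70 to 0.39 in U373cc3 (-1.31) and inside that of -0.61 to 0.44 in U373neo (-0.15). SMAD4, at 54830 bases, was inside its class's span in U373cc3 (-0.78, 10th percentile -0.82) and below it in U373neo (-0.99, 10th percentile -0.76). SMAD2, at 121916 bases, and SMAD3, at 129568 bases, were inside the span of their class in both clones. For the difference of the UV change between the clones, the shortest class had a median of -0.12 and a span of -0.46 to 0.25. ID1 (-0.46) lay at the lower edge of that span and SNAI2 (-0.84) below it. SNAI1 (-0.88) and SMAD7 (-1.16) lay below their spans of -0.48 to 0.23 and -0.36 to 0.22.

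**Figure D3:**
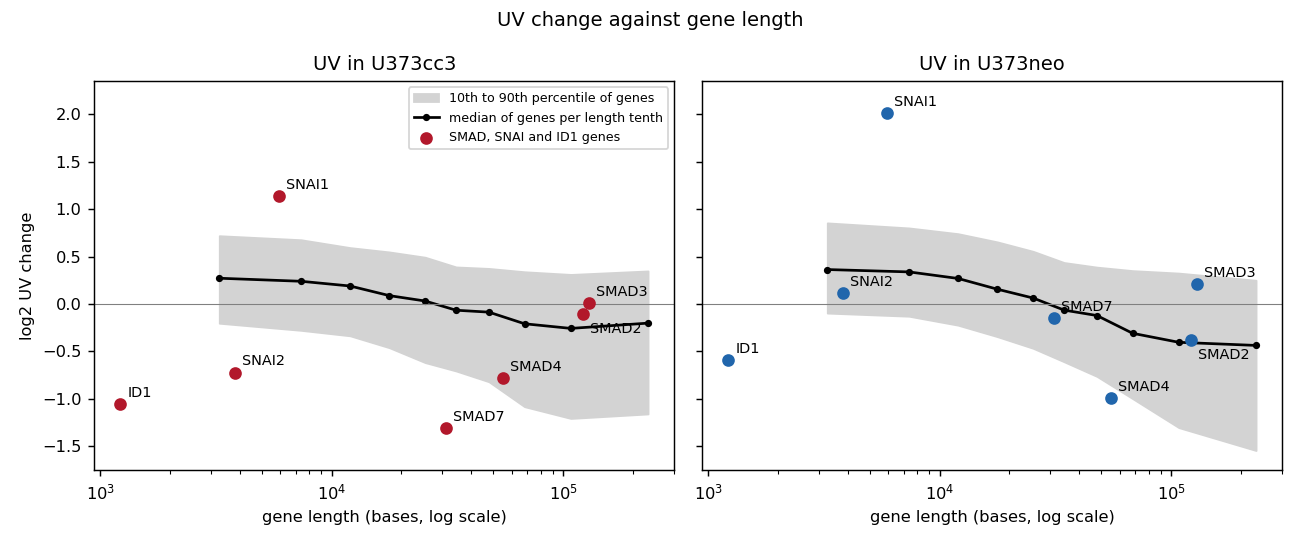
Log2 UV change against gene length (log axis, bases) in U373cc3, left, and U373neo, right; the black line is the median of all measured genes in each of 10 length classes, the grey band their 10th to 90th percentile, and coloured points the 7 genes. ID1, shorter than the median of the first class, lies lower than the left end of the band in both panels, SNAI2 and SMAD7 lie under the band in U373cc3, and SNAI1 lies above it in both.

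The nearest relatives gave further values. The BMP-branch receptor SMADs SMAD1 and SMAD5 had values and SMAD9 was blank. SMAD1 fell after UV to 382 ± 32.9 in U373cc3, against 941 ± 168 untreated (log2 change -1.29, adjusted p = 4.63e-06), and to 391 ± 22.0 in U373neo, against 756 ± 64.8 untreated (-0.95, adjusted p = 3.37e-05; SD, n = 3 each). Its second probe gave -1.43 in U373cc3 and -1.0 in U373neo. SMAD5 passed the test for UV in U373cc3 only (-0.38, adjusted p = 0.019), with -0.18 in U373neo, and the difference of -0.20 was not past the threshold (adjusted p = 0.5). The SMAD5 call in U373cc3 was lost without U373cc3 untreated replicate 2 or U373cc3 UV replicate 1 or 3 (-0.37 to -0.34). Of the co-repressors, TGIF2 was lower in U373cc3 than in U373neo, by 0.52 on the log2 scale untreated (log2 change -0.52, adjusted p = 0.00249) and by 0.89 after UV (-0.89, adjusted p = 5.45e-05). SKI was blank and SNAI3 had no probe.

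Among the ID genes, which share the helix-loop-helix fold that lets them trap other factors, ID2 and ID3 were higher in untreated U373cc3 by their brighter probes (log2 change 0.53, adjusted p = 0.00284, and 0.60, adjusted p = 0.0001), ID4 was lower (-0.59, adjusted p = 6.32e-05), and ID1 did not pass the test. After UV, ID3 fell in both clones (-0.85 in U373cc3 and -0.46 in U373neo), ID2 in U373cc3 only (-0.54, against -0.07 in U373neo) and ID4 in U373neo only (-0.27, against -0.15 in U373cc3). None of these 3 genes differed in UV change past the threshold (-0.47 for ID2, -0.39 for ID3 and 0.12 for ID4, adjusted p 0.101, 0.0605 and 0.502). With each array centred on its median the UV calls of ID2 in U373cc3 (-0.26, adjusted p = 0.0535) and of ID3 in U373neo (-0.12, adjusted p = 0.198) were lost. The dim second probe of ID3 passed no test, and that of ID2 did not pass between untreated clones (log2 change 0.12, adjusted p = 0.497).

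Further genes were taken from lists by role, 127 genes of which 55 had values in each clone comparison and 52 in the UV comparisons, with the brightest probe standing for a gene. Most are genes of the TGF-beta and BMP pathway. The lists also hold 5 other factors of the epithelial-mesenchymal transition, 16 epithelial and 8 mesenchymal genes, which the counts and medians below include. Between untreated clones 13 of 55 were higher and 10 lower in U373cc3, against 20.8% and 17.3% of all probes, and after UV 12 were higher and 12 lower, against 18.2% and 19.8%. UV raised 11 of 52 and lowered 25 in U373cc3, against 30.8% and 26.9% of all probes, and raised 9 and lowered 24 in U373neo, against 32.8% and 26.7%. The difference of the UV change passed the test for 5 of 52 genes, 1 higher and 4 lower, against 6.17% of all probes. Median log2 changes over these genes were -0.23 for UV in U373cc3 and -0.18 for UV in U373neo, against 0.06 in U373cc3 and 0.07 in U373neo over all probes. All probes are not matched to these genes in gene length. Over all genes the median UV change in U373neo ran from 0.36 in the shortest length class to -0.44 in the longest. The part of length in these counts, medians and falls was not tested. The same shares of all probes are the background of the counts by role that follow.

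Ligands were rarely measured, and of 11 TGF-beta and activin ligands only TGFB3 had values on all arrays. It was lower in untreated U373cc3 at 629 ± 130, against 895 ± 66.5 in U373neo (log2 change -0.53, adjusted p = 0.0122), and UV raised it in U373cc3 (0.50, adjusted p = 0.00999). The TGFB3 call between untreated clones stayed past the threshold in 16 of 22 alternatives (log2 change -0.69 to -0.44), being lost without U373cc3 untreated replicate 1 or 2, with the methods' t-test and in the 3 fits on single arrays. Its UV call in U373cc3 stayed in 17 of 22 (0.26 to 0.66), being lost on the values as deposited, with the methods' t-test and in the same 3 fits. Both TGFB3 tallies include leave-outs of replicates outside the comparison, which leave its log2 change as it is. BMP4 was higher in untreated U373cc3 at 206 ± 4.39, against 117 ± 18.02 in U373neo (0.83, adjusted p = 0.000271). AMH, the anti-Müllerian hormone, was raised by UV in both clones (0.82 in U373cc3 and 0.42 in U373neo), in U373neo not past the threshold on the values as deposited (0.18).

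Of 8 receptor genes with values on both treatments, UV lowered 4 in U373cc3 (26.9% of all probes) and 5 in U373neo (26.7%), and raised 1 in U373cc3 (30.8%). The type I receptor gene BMPR1A fell 4.59-fold in U373cc3, to 955 ± 97.4 against 4369 ± 119 untreated, and 4.49-fold in U373neo. ACVR1, another type I receptor of BMPs and activin, fell 4.32-fold in U373cc3 and 3.73-fold in U373neo. ACVR1B, the activin type I receptor that phosphorylates SMAD2 and SMAD3, fell more in U373cc3 (log2 change -1.34), and its UV change was 0.68 lower there (difference -0.68, adjusted p = 0.00921). TGFBR1, the TGF-beta type I receptor that SMAD7 blocks, named for that role after its values were seen, did not pass the test for UV (0.08 in U373cc3 and -0.01 in U373neo). TGFBR3 (betaglycan), which presents ligand, was lower in untreated U373cc3 at 217 ± 22.5, against 533 ± 69.6 in U373neo (-1.29, adjusted p = 0.000145).

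The other SMADs and the regulators of SMAD proteins, 11 genes with values that include SMAD1 and SMAD5, gave 9 that fell after UV in U373cc3 (26.9% of all probes fell) and 10 in U373neo (26.7%), with none raised (30.8% of all probes in U373cc3 and 32.8% in U373neo). The ubiquitin ligase genes SMURF2, which acts with SMAD7 on the receptor, and RNF111 (Arkadia), which degrades SMAD7 and SKIL proteins, fell by 1.41 and 1.35 on the log2 scale in U373cc3, and SMURF2 fell by 1.5 in U373neo. USP15, a deubiquitinase of this pathway, had a log2 change of -1.15 in U373cc3 and -1.46 in U373neo and was higher in U373cc3 than in U373neo after UV (0.54, adjusted p = 0.000398). ZFYVE9 (SARA), the anchor that brings SMAD2 and SMAD3 to the receptor, had a higher UV change in U373cc3 (difference 0.64, adjusted p = 0.0108), with a log2 change of -0.64 in U373cc3 and -1.28 in U373neo. PMEPA1, a TGF-beta target that sequesters receptor SMADs, was higher in untreated U373cc3 at 746 ± 54.0, against 439 ± 64.7 in U373neo (0.77, adjusted p = 0.00125). UV lowered PMEPA1 in both clones (-1.14 in U373cc3 and -0.71 in U373neo), and the difference of -0.43 did not pass the test (adjusted p = 0.2).

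Of 6 nuclear co-factors UV lowered 3 in each clone (26.9% of all probes in U373cc3 and 26.7% in U373neo) and raised 1 in U373cc3. SIN3A, a co-repressor scaffold, had log2 changes of -1.87 in U373cc3 and -1.47 in U373neo, and CREBBP, an acetyltransferase and co-activator, of -1.11 and -1.28 in these clones. Among latency proteins and antagonists 5 of 7 were raised in each clone (30.8% of all probes in U373cc3 and 32.8% in U373neo), and 1 was lowered in U373cc3. BAMBI, a decoy receptor that is itself a target of the pathway, rose by 0.51 in U373cc3 (0.29 and not past the threshold on the values as deposited) and by 0.97 in U373neo, and it was higher in untreated U373cc3 (0.68, adjusted p = 0.00104). NBL1, a secreted BMP antagonist, was 4.13-fold higher in untreated U373cc3 (731 ± 6.1, against 177 ± 8.47 in U373neo) and 3.49-fold higher after UV. Between untreated clones 3 of these 7 genes were higher and 2 lower in U373cc3, against 20.8% and 17.3% of all probes. After UV 2 were higher and 3 lower, against 18.2% and 19.8%. LTBP4 was lower in U373cc3 both untreated (-0.69, adjusted p = 0.000256) and after UV (-0.85), and LTBP3 was lower after UV (-0.71).

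Of 12 target genes measured in untreated cells, 5 were higher and 2 lower in U373cc3, against 20.8% and 17.3% of all probes. KLF10, a TGF-beta-inducible zinc finger factor, was 1.95-fold higher at 4515 ± 313, against 2316 ± 27.0 in U373neo (log2 change 0.96, adjusted p = 2.61e-05). TSC22D1 was lower in untreated U373cc3 at 218 ± 40.3, against 411.5 ± 67.6 in U373neo (log2 change -0.92, adjusted p = 0.000677). UV lowered KLF10 in U373cc3 (-0.43) and raised it in U373neo (0.43), with a difference of -0.86 (adjusted p = 0.00929). BHLHE40, a helix-loop-helix repressor, and CDKN1A, the cyclin-dependent kinase inhibitor p21, also had a lower UV change in U373cc3 (-0.56, adjusted p = 0.0391, and -0.52, adjusted p = 0.0469). Both of these calls were lost without most single replicates (9 of 12 for BHLHE40, -0.57 to -0.47, and 10 of 12 for CDKN1A, -0.58 to -0.42). CDKN2B, the kinase inhibitor p15, rose 4.396-fold in U373cc3 and 5.94-fold in U373neo, and MYC fell by 1.23 and 1.26 on the log2 scale in these clones.

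Of the other factors of the epithelial-mesenchymal transition, ZEB1 and ZEB2 fell after UV where SNAI1 rose. ZEB1 was at 284 ± 38.0 in U373cc3 after UV, against 780.3 ± 88.4 untreated (log2 change -1.46), and at 184 ± 23.6 in U373neo, against 689.6 ± 19.5 untreated (-1.91). ZEB2 changed by -1.08 in U373cc3 and -1.65 in U373neo. TWIST1 was lower in U373cc3 both untreated (-0.52, adjusted p = 0.000207) and after UV (-0.65, adjusted p = 3.41e-05). Of 8 mesenchymal genes 2 had values. MMP2, a matrix protease, was 3.32-fold higher in untreated U373cc3 and 3.78-fold higher after UV, while CDH2 (N-cadherin) did not pass the test (log2 change -0.23 untreated, adjusted p = 0.0972, and -0.05 after UV, adjusted p = 0.76). Of 16 epithelial genes, the class that SNAI proteins repress, 1 had values on both treatments, CLDN1 (claudin 1), which fell by 0.66 in U373cc3 and 0.71 in U373neo after UV on the log2 scale.

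**Figure D4:**
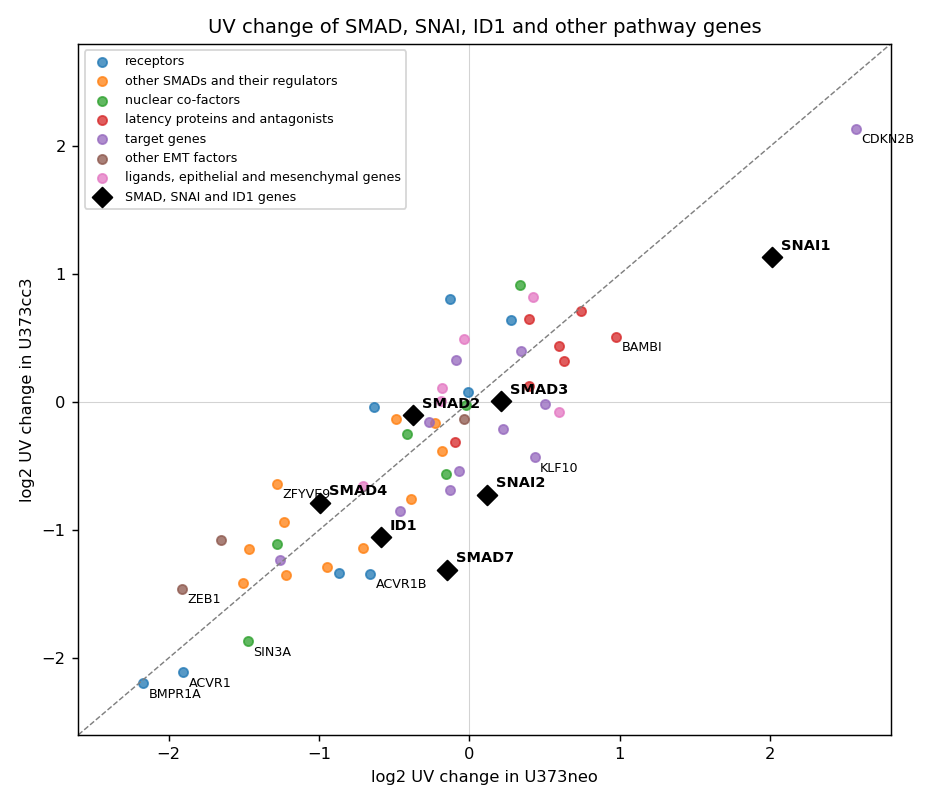
Log2 UV change in U373cc3 (vertical axis) against that in U373neo (horizontal axis) for the 7 genes (black diamonds) and the other measured genes of the role lists (coloured points), with equal changes on the dashed line. SMAD7, SNAI1, SNAI2 and ID1 lie under the line, as do ACVR1B and KLF10, while BMPR1A lies on it (-2.20 in U373cc3, -2.17 in U373neo).

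Over the 12 replicates and 8798 probes compared, the 5 probes whose joint log2 intensity followed that of SMAD7 most closely were those of FZD1 (Pearson r = 0.988), ZNF317 (0.962), RBM6 (0.96), FZD5 (0.953) and USP36 (0.951). FZD1, a frizzled receptor, averaged 2274 in U373cc3 after UV, 4075 in untreated U373cc3, 2289 in U373neo after UV and 2549 in untreated U373neo, so it too stood apart in untreated U373cc3. For SNAI1 they were TLCD1 (0.989), DCAKD (0.989), MPG (0.988), CLTB (0.986) and TMEM52 (0.985), and TLCD1 averaged 1065, 587, 1244 and 425 in these groups in the same order. Within the set, SMAD7 followed SNAI2 (r = 0.83), while SNAI1 ran against SMAD4 (r = -0.958) and ID1 (r = -0.842). The replicates fall into 4 groups and share their normalization, so these values describe the pattern over the groups.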

How the data were processed

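The authors labelled amplified RNA with Cy5, hybridised it to Human OneArray chips, averaged probe intensities and quantile-normalized them; the deposited values are linear intensities, and within a treatment every array lacks the same probes. Medians differ between treatments, so these had been normalized apart. Of 30968 probes, 12300 had values on untreated and 12343 on UV arrays, 11602 on both. Background signal was not used here, and replicate number limits the precision. Symbols of 9659 probes were checked against the GRCh38.p14 gene table (8129 current, 1486 updated, 44 unmatched), and 3382 probes had none.

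Intensities were taken to log2, and 3 technical arrays were averaged per biological replicate. limma 3.58.1 with statmod 1.5.0 in R 4.3.3 was fitted to 4 groups of 3 replicates, on the deposited values for the clones and after joint quantile normalization for UV. Adjustment was by Benjamini-Hochberg, across every probe of a comparison. The fit was tested on simulated data. Alternatives were other scalings, a dim-probe filter, replicates left out, a replicate block, serial ranges, single arrays and the methods' t-test, here with the same adjustment. The genes, lists and tests were chosen with earlier results of these data known. Named genes were the members and their nearest relatives, and the 5 probes most like SMAD7 and SNAI1. Most others came from the 3 largest changes past the threshold per role list and comparison, not all of which are named.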

Additional observations from a re-analysis of the deposited data

Results flagged for a closer look

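The UV change differed between U373cc3 and U373neo by limma's test of the difference itself for SMAD7 (-1.16 on the log2 scale), SNAI1 (-0.88), SNAI2 (-0.84) and ID1 (-0.46). Groups of 3 replicates were not tested for single samples that stand apart.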

How the results depend on the processing

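Of 768 alternative values for log2 changes of the 10 genes, 720 kept their direction and side of the threshold, 31 lost and 5 gained a call, and 12 turned in sign, none of them past the threshold. Each of the 12 replicates was left out in turn, also those outside a clone or UV comparison. Such a leave-out cannot change that comparison's log2 change and acts only through the spread pooled for the test, so the count of 720 is partly fixed in advance. The counts also include the range A fit, with 1 biological replicate of U373cc3 after UV. The methods filter on t-tests at p under 0.05 and state no adjustment, while the t-test here was adjusted by Benjamini-Hochberg. So adjusted, it passed 1 gene in place of 3 after UV, SMAD2 and SNAI2 being lost. That test also lost SMAD4 between untreated clones (adjusted p = 0.0615) and SMAD2 for UV in U373neo (adjusted p = 0.125). Leaving out 1 replicate gave 3 to 4 genes untreated, 2 to 3 after UV, 5 for UV in U373cc3, 3 to 4 for UV in U373neo and 3 to 4 for the difference. Signs turned for ID1 untreated without single replicates (-0.0715 to 0.0288), within range A (0.0365) and after joint normalization (0.000302), for SMAD6 untreated without single replicates (-0.13 to 0.0463), for SNAI2 in U373neo on deposited values (-0.11), and for UV in U373cc3 in SMAD2 (-0.18 to 0.0058) and SMAD3 (-0.11 to 0.14) without single replicates and in SMAD3 within range A (-0.0304). Same-numbered replicates showed no common deviation (r -0.338 to 0.367). With 3 replicates per group this cannot exclude a pairing by number, which the labels do not state. With the replicate block the difference passed for 448 probes in place of 716, and ID1 lost its call (-0.46, adjusted p = 0.0732). That count was 1404 on single arrays, 1803 on single arrays with the serial range as a term and 230 to 977 without 1 replicate, lowest without U373neo UV replicate 2. The adjusted t-test passed 3050 probes untreated, against 4698 for limma. Without adjustment the t-test passed 4935 at p under 0.05. The t-test was not run for the difference. Dim probes limit SMAD3 and SMAD7. They also limit some other named genes: BMP4 (117 in untreated U373neo), and after UV SIN3A (91.9 in U373cc3 and 124 in U373neo) and SMURF2 (125 in U373cc3 and 139 in U373neo). Further named genes had groups near the dim level of SMAD7. Among them were ACVR1 after UV (188 in U373cc3 and 164 in U373neo) and ZEB1 in U373neo after UV (184). In U373neo they included MMP2 (215 untreated and 167 after UV) and NBL1 (177 untreated). In U373cc3 they included LTBP4 (175 untreated and 179 after UV), and untreated TGFBR3 (217) and TSC22D1 (218). For comparison, the second SMAD2 probe read 118 in untreated U373neo, at percentile 4.2.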
